A study of Mus musculus with 3 samples.

Results

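The 10 genes described here encode enzymes that draw on arginine, tryptophan and related amino acids or make itaconate, namely Arg1, Arg2, Nos2, Ass1, Odc1, Sat1, Acod1, Ido1, Kmo and Il4i1. They were chosen as a list of symbols, and all 10 were found among the 55401 genes of the count matrices. The cells were live CD45+ leukocytes (DAPI negative, stained for CD45.2) sorted from tumours of YUMM1.7, a mouse melanoma cell line, grown under the skin. Hosts were 4, 12 or 20 months old, 7 mice of each age, and tumours were taken 18 days after injection of 500000 cells, with no genotype, strain or further treatment given in the labels. Each age was 1 library made with a droplet 3′ single-cell kit (PIP-seq), so differences between ages had no replicate check, and the labels do not say how many of the 7 mice entered a library.

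Arginine is split by arginase to ornithine and urea, or oxidised by inducible nitric oxide synthase to nitric oxide and citrulline, and the choice between these fates is a textbook contrast of macrophage states. Ornithine feeds the polyamines, and citrulline can be returned to arginine. Itaconate is made from the citrate cycle intermediate cis-aconitate in activated myeloid cells and acts on succinate dehydrogenase and on Nrf2. Tryptophan is broken down to kynurenine and its products, or oxidised by a secreted amino acid oxidase, and several of these products bind the aryl hydrocarbon receptor.

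The stretch before the transcription start is printed for Acod1, Kmo and Il4i1, because the myeloid classes differed widely in these genes. The sequences are from RefSeq on GRCm38.p6, cover the 250 bases before the RefSeq start, and read 5′ to 3′ on the strand of the gene. RefSeq promoters were matched for 6 of the 10 genes, also Ass1, Odc1 and Sat1. The stretches before Ass1, Odc1 and Sat1 held no match to a searched motif, so every match found lies in a printed stretch. Capitals mark the matches to a searched motif. These are chr14:103046762-103047011 (+), chr1:175631943-175632192 (+) and chr7:44836038-44836287 (+).
Acod1: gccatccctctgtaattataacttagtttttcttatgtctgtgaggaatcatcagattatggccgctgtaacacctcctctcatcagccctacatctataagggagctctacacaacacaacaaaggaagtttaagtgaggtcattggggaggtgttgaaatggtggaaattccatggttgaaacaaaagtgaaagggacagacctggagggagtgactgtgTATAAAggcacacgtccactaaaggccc
Kmo: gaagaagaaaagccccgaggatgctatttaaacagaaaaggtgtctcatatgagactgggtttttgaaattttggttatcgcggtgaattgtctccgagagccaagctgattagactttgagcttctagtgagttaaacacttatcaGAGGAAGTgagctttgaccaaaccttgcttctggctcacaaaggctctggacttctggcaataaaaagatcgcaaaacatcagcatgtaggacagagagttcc
Il4i1: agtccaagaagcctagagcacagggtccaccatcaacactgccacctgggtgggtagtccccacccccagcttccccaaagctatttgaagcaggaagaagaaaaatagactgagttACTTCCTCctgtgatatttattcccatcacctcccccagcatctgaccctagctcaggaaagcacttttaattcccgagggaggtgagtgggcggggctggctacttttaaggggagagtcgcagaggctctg
Both strands were searched for an interferon-stimulated response element, an interferon-gamma activated site (TTCNNNGAA), an AP-1 site (TGANTCA), an ETS-IRF composite, the kappaB motif, a PU.1 site (GAGGAAGT) and a TATA box (TATAAA). The Acod1 stretch held TATAAA from −28 to −23, counted from the start site, and 12.4% of 32851 promoters of that length hold one. A PU.1 match, found in 2.44% of promoters, lay from −103 to −96 before Kmo and from −133 to −126 before Il4i1, on the opposite strand in the latter. The RefSeq starts of Acod1 (103047012), Kmo (175632193) and Il4i1 (44836288) lie inside the gene spans given below, whose first base is upstream. The TATAAA before Acod1 and the whole of the other 2 stretches lie inside those spans too. The other motifs had no match in these 3 stretches. They occur in 2.98% (response element), 7.02% (activated site), 6.75% (AP-1), 2.30% (composite) and 7.25% (kappaB) of promoters. The ETS-IRF composite and the response element can share bases.

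In the annotation GENCODE M21 of GRCm38, all 10 genes are protein-coding. Arg1 (ENSMUSG00000019987.9) spans 24915221 to 24927484 of chromosome 10, on the minus strand, and Arg2 (ENSMUSG00000021125.6) spans 79130777 to 79156301 of chromosome 12, on the plus strand. Nos2 (ENSMUSG00000020826.8, listed as ENSMUSG00000020826.9 in the matrices) lies at 78920787 to 78960254 of chromosome 11 and Ass1 (ENSMUSG00000076441.9) at 31470207 to 31520672 of chromosome 2, both on the plus strand. Odc1 (ENSMUSG00000011179.8) lies at 17544794 to 17551505 of chromosome 12, plus strand, and Sat1 (ENSMUSG00000025283.15) at 155213132 to 155216449 of chromosome X, minus strand. Acod1 (ENSMUSG00000022126.6) lies at 103046977 to 103056573 of chromosome 14, plus strand, and Ido1 (ENSMUSG00000031551.12) at 24584136 to 24597009 of chromosome 8, minus strand. Kmo (ENSMUSG00000039783.15) lies at 175620381 to 175662116 of chromosome 1 and Il4i1 (ENSMUSG00000074141.13) at 44816387 to 44840809 of chromosome 7, both on the plus strand. Exons of Il4i1 lie within the spans of Nup62 on the same strand and of Atf5 and Tbc1d17 on the other, and exons of Arg2 within those of Vti1b and Gm48780 on the other strand. Whether strand was used in counting is not given in the sources used here, so reads in those stretches cannot be assigned with certainty.

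The matrices held 14393, 14653 and 14684 cells at 4, 12 and 20 months, with 110371225, 127850782 and 119873564 counts and medians of 6789, 7411 and 6936 counts per cell. Between 2 and 4 cell barcodes were shared by any pair of libraries. Ptprc, which encodes CD45, had a count in 95.3%, 94.1% and 94.1% of cells, while 6 melanoma genes summed to 3.90, 4.55 and 4.96 CPM (counts scaled by the total of the cells summed), although the labels give the cell type as melanoma. Of the 13528, 13774 and 13803 cells retained after quality and doublet filters, the C1q macrophage class had 2628, 2568 and 3374 and the monocyte class 2583, 1598 and 1705. These names rest on marker genes and stand for macrophage-like and monocyte-like cells, and so on for the other classes. A further 1152, 1965 and 2089 cells stayed unnamed. The larger unnamed cluster (1033, 1802 and 1997 cells) scored highest for T cells and the smaller (119, 163 and 92) for NK cells. Shares of counts given for T and NK cells leave them out. Named T cells outside the regulatory and gamma-delta T classes (3131, 4040 and 3596) are called other T cells here. They include a cluster of 4, 21 and 62 cells led by Dpf3, Sim1 and Sema5a, with a median of 17234 counts per cell. Its T cell score was 0.596, against 0.808 to 0.928 in the other clusters of the class. The part of this cluster in the level of other T cells was not tested. Other T cells are taken as the background level for genes that lymphocytes make little of, and the source of their counts was not tested. Levels are CPM over all cells of a class in a library, with exact Poisson 95% intervals that cover counting error only.

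Arg1, the cytosolic arginase, was highest in monocytes. In order of age its levels there were 43.7 CPM (40.8 to 46.8), 45.7 (42.2 to 49.5) and 56.8 (52.8 to 61.0), drawn from 835, 604 and 748 counts, and all values by age below follow that order. In C1q macrophages it was 20.7 (18.9 to 22.6), 20.1 (18.5 to 21.9) and 21.7 CPM (20.1 to 23.4). Monocytes lay above macrophages in all 3 libraries, 2.30-fold over the libraries together (2.16 to 2.45). Other T cells had 1.58, 2.60 and 2.79 CPM, the background against which the monocyte level was 20.0-fold and the macrophage level 8.71-fold higher. Dendritic cells had Arg1 at 0 to 5.38 CPM, and in natural killer (NK) cells the level was 2.49, 2.38 and 4.94 CPM, where 1 cell gave 20 of the 64 counts at 20 months. Of all Arg1 counts in retained cells, 88.1% came from macrophages and monocytes. With each cell thinned to 2000 counts, 4.88%, 4.44% and 6.39% of monocytes and 2.66%, 1.99% and 2.73% of macrophages had an Arg1 count, against 0.29%, 0.47% and 0.81% of other T cells. Without thinning the shares were 11.1%, 12.0% and 13.1% of monocytes, 6.66%, 5.45% and 6.61% of macrophages and 1.02%, 1.71% and 1.84% of other T cells. Median depths were 7165 to 7949.5 counts in monocytes and 5159 to 5958 in other T cells.

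**Figure D1:**
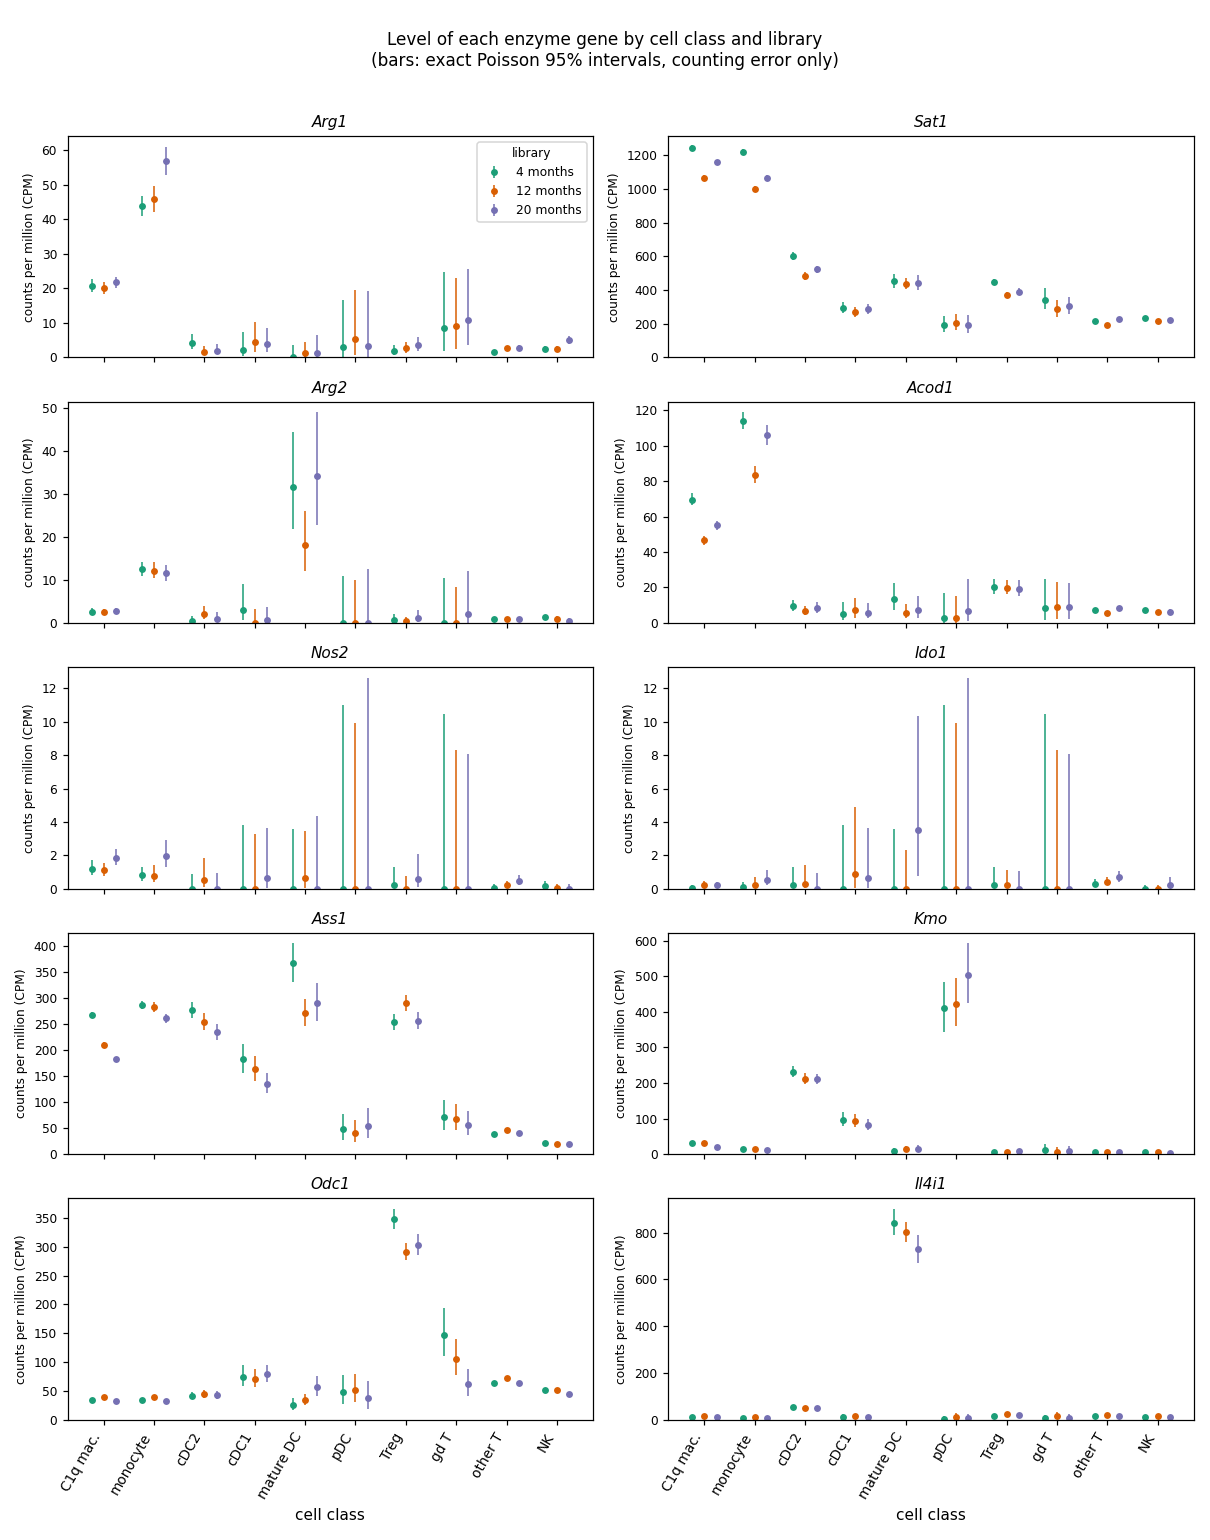
The plot gives the CPM level (linear axes) of the 10 enzymes by cell class, with 1 point per library (4, 12 and 20 months) and exact Poisson 95% intervals as bars. Kmo is highest in plasmacytoid, Il4i1 in mature dendritic, Odc1 in regulatory T cells and Arg1 in monocytes.

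Arg1 was carried by few cells in the macrophage class. A sub-cluster of 63 cells led by Mmp12, Lpl and Spp1 had it at 486 CPM (436 to 539), and its level was 209, 708 and 1074 CPM in 36, 18 and 9 cells at 4, 12 and 20 months. These cells made up 1.37%, 0.70% and 0.27% of macrophages and held 16.8%, 32.0% and 13.9% of their Arg1 counts. The 10 macrophages with the most Arg1 held 36.2%, 60.0% and 30.8%, and a single cell held 113 of the 538 counts at 12 months. The other macrophage sub-clusters lay between 5.77 CPM, in that led by Pf4, Cd81 and Ccl8, and 23.3 CPM. Among monocytes the level was 65.9 CPM in cells led by Plac8 and Ace, 56.3 in cells led by Osm, Nr4a1 and Il1b, and 44.4 in cells led by Vcan and F13a1. It was 3.64 CPM in the monocytes led by Serpinb10, near the level of other T cells. Arg1 itself was among the 10 leading genes of the Plac8 sub-cluster, though no member entered the genes used for clustering.

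Arg2, the mitochondrial arginase, had a different order of classes. Mature dendritic cells, which bear Fscn1 and Ccr7, had 31.8 CPM (21.9 to 44.6), 18.1 (12.1 to 26.0) and 34.2 (22.9 to 49.1), from 33, 29 and 29 counts. These came from 20, 19 and 14 of the 137, 169 and 102 cells, and the 10 highest cells held 69.7%, 69.0% and 86.2% of them. At 20 months 1 cell gave 12 of the 29 counts, and the level without it was 20.3 CPM (11.8 to 32.5). Monocytes had 12.5, 12.2 and 11.5 CPM, and macrophages only 2.66, 2.66 and 2.86. Thus monocytes lay 4.43-fold above macrophages and 2.15-fold below mature dendritic cells over the 3 libraries. Without the 10 highest cells of each class in each library the last order turned, with monocytes at 10.05 CPM (9.14 to 11.01) and mature dendritic cells at 7.18 (4.55 to 10.8), intervals that overlap. Those 10 cells were a much larger part of the mature dendritic cells than of the 2583, 1598 and 1705 monocytes. The turn therefore does not settle which class was higher. Vti1b, whose exons overlap those of Arg2 on the other strand, was at 154, 122 and 126 CPM in mature dendritic cells, several times the Arg2 level, against 73.9, 74.3 and 71.7 in monocytes. The part of its reads in the Arg2 counts was not tested. Other T cells had 0.889, 1.03 and 1.02 CPM. In plasmacytoid dendritic cells no Arg2 count was found, and 3 counts, taken as the limit that a count of 0 allows, would be 8.98, 8.07 and 10.3 CPM. The 24 neutrophil-like cells gave 14, 15 and 1 Arg2 counts, or 325.5, 157.1 and 18.9 CPM, from 8, 11 and 5 cells.

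Nos2, the inducible nitric oxide synthase, was scarce, with 207 counts in all, 80.7% of them in macrophages and monocytes. Macrophages had 28, 29 and 59 counts, or 1.20 CPM (0.797 to 1.73), 1.09 (0.727 to 1.56) and 1.83 (1.40 to 2.37). Monocytes had 15, 10 and 26 counts, or 0.786, 0.757 and 1.97 CPM, and other T cells had 1, 7 and 12. The 20-month values were the highest in all 3 classes. At 12 months macrophages were not above their 4-month level, while other T cells went from 0.0494 to 0.225 CPM. The macrophage sub-cluster led by Cxcl11 and Cxcl9 held 60.7%, 48.3% and 59.3% of the macrophage counts. The Nos2 level there was 3.07, 3.33 and 6.82 CPM, from 17, 14 and 35 counts. The other large macrophage sub-clusters lay at 0 to 1.65 CPM, and the Mmp12-led cells gave 3, 1 and 0 counts. As classes, macrophages and monocytes stayed below 10 CPM, and Nos2 entered no count of changed genes.

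Ass1, argininosuccinate synthase, which starts the return of citrulline to arginine, was high in 5 classes. Mature dendritic cells had 368, 272 and 291 CPM, monocytes 287, 283 and 262 and regulatory T cells 254, 290 and 257. Type 2 dendritic cells, which bear Cd209a, had 277, 255 and 235 CPM, and macrophages 268 (261 to 274), 209 (204 to 215) and 182 (178 to 187). At 4 months mature dendritic cells (332 to 406) lay clear above the other 4 classes, and at 12 and 20 months macrophages lay clear below them. The highest level was that of mature dendritic cells at 4 and 20 months and of regulatory T cells at 12 months, where the intervals of these classes overlapped. Type 1 dendritic cells had 183, 163 and 136 CPM. Plasmacytoid dendritic cells, at 47.9, 40.4 and 54.8 CPM, and fibroblast-like cells, at 44.5, 53.1 and 27.3, overlapped other T cells, which had 39.0, 45.7 and 40.04 CPM. NK cells had 21.2, 19.9 and 20.2 CPM. Regulatory T cells lay 6.39-fold above other T cells and macrophages 5.12-fold.

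Odc1, ornithine decarboxylase, which makes the polyamine putrescine, was higher in regulatory T cells than in any other class. Their level was 348 CPM (331 to 366), 291 (276 to 306) and 304 (286 to 323) at 4, 12 and 20 months. Gamma-delta T cells had 147, 106 and 61.2 CPM from 52, 47 and 28 counts, with intervals of 110 to 193 at 4 months and 40.7 to 88.4 at 20 months, and other T cells 62.9, 71.8 and 64.6. Macrophages, at 33.8, 38.9 and 33.2 CPM, and monocytes, at 34.3, 39.8 and 33.0, lay below other T cells in all 3 libraries, at 0.526 and 0.530 of their level. Odc1 was thus low in the classes where Arg1 was highest. Regulatory T cells lay 4.69-fold above other T cells (4.497 to 4.88), and at 2000 counts per cell 44.9%, 40.7% and 41.2% of them had an Odc1 count, against 11.5%, 12.3% and 11.5%. Without thinning these shares were 71.8%, 76.5% and 73.4% against 28.2%, 36.4% and 31.5%. Both regulatory T sub-clusters were high, with 326 CPM in the larger and 261 CPM in the dividing cells.

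Sat1, which acetylates spermidine and spermine for export or oxidation, was highest in macrophages and monocytes. The level in macrophages was 1245 (1230 to 1259), 1068 (1056 to 1081) and 1163 CPM (1152 to 1175), and in monocytes 1221, 999.9 and 1069. Macrophages lay 1.04-fold above monocytes over the libraries, and monocytes 2.07-fold above type 2 dendritic cells. Type 2 and mature dendritic and regulatory T cells lay between 369 and 603 CPM, and other T and NK cells between 195 and 231. Of all Sat1 counts 74.1% came from macrophages and monocytes.

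**Figure D2:**
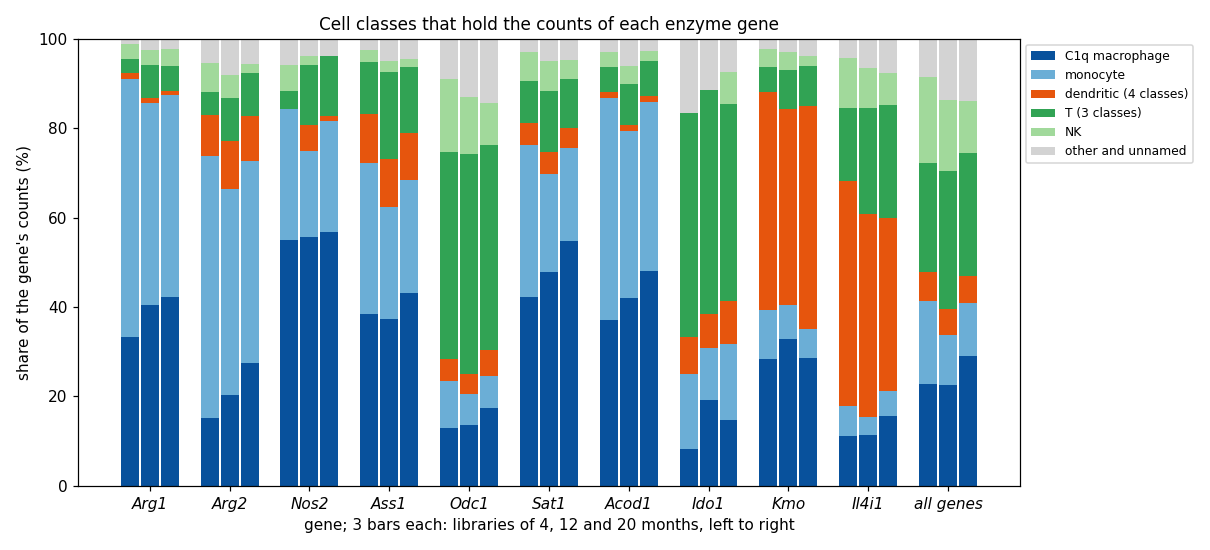
The stacked bars give the percentage of each enzyme's counts held by the cell classes, with 3 bars per gene for the 4-, 12- and 20-month libraries and the share of all counts at the right. Over the libraries, macrophages and monocytes hold 88.1% of Arg1 and 84.5% of Acod1 counts, and the named T and NK classes 60.1% of Odc1 counts.

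Acod1, which makes itaconate, was highest in monocytes among the classes of 50 or more cells in each library. It stood at 114 CPM (109 to 119), 83.7 (78.8 to 88.7) and 106 (101 to 112) in monocytes and at 69.6 (66.3 to 73.1), 46.6 (44.0 to 49.2) and 55.1 (52.6 to 57.7) in macrophages. Other T cells had 7.41, 5.40 and 8.22 CPM, where 1 cell gave 19, 7 and 35 of the 150, 168 and 218 counts. Both myeloid classes were lowest at 12 months, and so were other T cells. Monocytes lay 1.82-fold above macrophages (1.75 to 1.90), and 84.5% of Acod1 counts came from these classes. Regulatory T cells had 20.2, 19.9 and 19.3 CPM, 2.88-fold above other T cells (2.47 to 3.35) in the pooled libraries. Their counts came from 61, 59 and 46 of 738, 634 and 493 cells, 10 cells held 38.6%, 45.5% and 46.3% of them, and 1 cell gave 19 of 99 at 12 months. Without the 10 highest cells of each class in each library, regulatory T cells were at 11.5 CPM (9.68 to 13.5) and other T cells at 5.42 (4.91 to 5.96). Gamma-delta T, other T and NK cells had 5.40 to 9.01 CPM. After thinning, 15.02%, 11.8% and 13.1% of monocytes, 10.997%, 7.75% and 8.60% of macrophages and 1.18%, 1.16% and 1.36% of other T cells had an Acod1 count. Without thinning the shares were 30.5%, 24.7% and 28.4%, 25.1%, 22.4% and 22.0%, and 4.06%, 3.84% and 4.42%. Neutrophil-like cells gave 68, 85 and 2 counts, or 1581, 890 and 37.8 CPM, from 24 cells in all.

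Within macrophages Acod1 sat mainly in the sub-cluster led by the chemokines Cxcl11 and Cxcl9. Its level there was 179 CPM at 4 months, 163 at 12 months and 206 at 20 months, and it is itself among the leading genes of that sub-cluster. These cells made up 24.5%, 17.4% and 17.2% of macrophages and held 61.0%, 55.1% and 59.5% of their Acod1 counts. The 63 cells led by Mmp12 also had it, at 237 CPM (191 to 291), 140 (96.9 to 196) and 88.6 (38.2 to 174.5), above the Cxcl11-led cells at 4 months and below them at 20 months. The other large sub-clusters lay at 18.5 to 35.1 CPM. Among monocytes the sub-cluster led by Osm and Nr4a1 had 131 CPM, those led by Plac8 and by Vcan had 109 and 107, and that led by Serpinb10 had 13.96. Levels thus differed between sub-clusters of a class by more than between the class sums. With cells thinned to 3500 counts, 378, 184 and 204 monocytes had both Acod1 and Ass1, against 292.8, 144.9 and 169.1 if the genes fell independently. In macrophages 279, 178 and 246 cells had both, against 210.7, 135.5 and 179.4. Ass1, like Acod1, was higher in the Cxcl11-led sub-cluster (353 CPM) than in the other large macrophage sub-clusters (84.2 to 249.95), with 632, 379 and 266 CPM in the Mmp12-led cells, and the part of sub-cluster makeup in these counts was not tested.

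**Figure D3:**
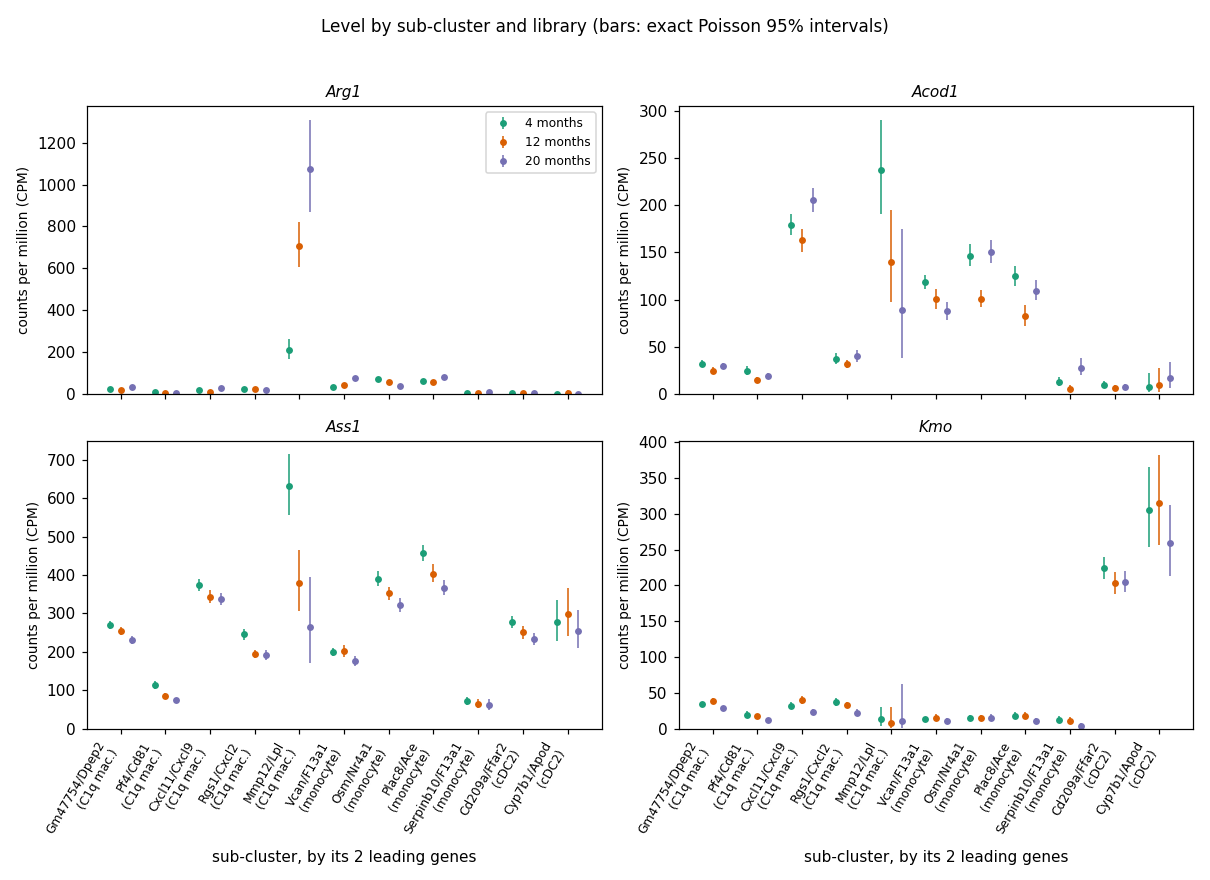
The panels give the CPM level (linear axes) of Arg1, Acod1, Ass1 and Kmo in sub-clusters of macrophages, monocytes and type 2 dendritic cells (cDC2), each named by 2 leading genes, with 1 point per library and exact Poisson 95% intervals. Arg1 stands out in the 63 cells led by Mmp12 and Lpl, where Acod1 (237, 140 and 88.6 CPM) and, at 4 months, Ass1 (632 CPM) are high too, and Acod1 stands out in those led by Cxcl11 and in 3 of the 4 monocyte sub-clusters.

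Ido1, which opens the kynurenine pathway, gave 79 counts in the 3 libraries together. Macrophages had 1, 5 and 6 counts, mature dendritic cells 0, 0 and 3, and other T cells 5, 12 and 18. Of the counts 50.6% fell in the named T and NK classes, and the 20-month level in mature dendritic cells, 3.54 CPM, has an interval of 0.729 to 10.3. Other T cells themselves lay at 0.449 CPM (0.313 to 0.625) over the libraries, above macrophages at 0.146 (0.0754 to 0.255) and NK cells at 0.0582 (0.0120 to 0.170). In no library did macrophages, monocytes or a dendritic class lie above other T cells beyond counting error. The fibroblast-like cells had 1, 3 and 0 counts, and the 3 counts, from 31 cells at 12 months, give 8.39 CPM (1.73 to 24.5), clear of other T cells in that library.

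Kmo, kynurenine 3-monooxygenase, was highest in 3 of the 4 dendritic classes. Plasmacytoid dendritic cells, which bear Siglech and Ccr9, had 410 CPM (344 to 485), 422 (359 to 494) and 504 (426 to 592), from 137, 157 and 147 counts in 61, 57 and 52 cells. Type 2 dendritic cells had 232, 212 and 210 CPM, type 1 dendritic cells, which bear Xcr1 and Clec9a, 96.4, 93.4 and 82.5, and macrophages 30.9, 31.2 and 20.4. Among these classes the order plasmacytoid, type 2, type 1 and macrophage held in each library. Steps between neighbours were 2.02-fold, 2.44-fold and 3.33-fold over the libraries, and macrophages were 4.36-fold above other T cells, which had 5.78, 6.11 and 6.56 CPM. Mature dendritic cells had only 9.62, 14.98 and 15.3 CPM. The small B cell class (25, 26 and 22 cells) had 69.5 (34.7 to 124), 15.7 (5.09 to 36.6) and 68.0 CPM (33.9 to 122), from 11, 5 and 11 counts. A Kmo count was present at 2000 counts per cell in 49.2%, 43.9% and 57.7% of plasmacytoid dendritic cells, against 1.18%, 1.14% and 1.33% of other T cells. Of type 2 dendritic cells 34.1%, 32.3% and 32.0% and of macrophages 6.16%, 5.88% and 4.09% had one. Without thinning the shares were 83.6%, 82.5% and 88.5%, against 3.61%, 4.36% and 4.17%. Kmo was also among the 10 leading genes of the larger type 2 dendritic sub-cluster.

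Il4i1, a secreted oxidase of phenylalanine, tryptophan and tyrosine, had a near reverse order within dendritic cells. Mature dendritic cells had 843 CPM (788 to 901), 802 (758 to 847) and 728 (672 to 788), 15.7-fold above type 2 dendritic cells (14.4 to 17.2), which had 53.6, 49.6 and 48.2. At 2000 counts per cell 65.0%, 65.1% and 64.7% of mature dendritic cells had an Il4i1 count, and 86.1%, 88.8% and 91.2% without thinning. Plasmacytoid dendritic cells had 1, 4 and 2 counts. Other T cells had 14.5, 21.2 and 17.9 CPM and macrophages 10.5, 14.1 and 10.5, so that macrophages lay at 0.639 of the level of other T cells. Of the overlapping genes, Nup62 and Tbc1d17 were at 9.43 to 16.4 CPM and Atf5 at 5.62 to 7.70 in mature dendritic cells, far below Il4i1. In other T cells Nup62 and Tbc1d17 were at 12.3 to 17.2 CPM, close to the Il4i1 level there. Macrophages had Nup62 at 7.07, 8.42 and 7.43 CPM and Tbc1d17 at 13.3, 15.8 and 15.8, also close to their Il4i1 level. The part of reads from these genes in the Il4i1 counts was not tested. In type 2 dendritic cells a sub-cluster of 116 cells led by Cyp7b1 and Apod had 314 CPM (282 to 348), against 23.5 in the larger sub-cluster, and held 65.2%, 47.7% and 59.4% of the Il4i1 counts in 8.10%, 8.84% and 10.7% of the cells. Kmo was high in both sub-clusters, at 291 and 211 CPM.

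Set against other T cells, 5 of 7 members at 10 CPM or more were over 2-fold higher in macrophages in all 3 libraries (Arg1, Ass1, Sat1, Acod1 and Kmo), where 13.6% of all genes tested were. In monocytes it was 5 of 8 (background 18.2%), in type 2 dendritic cells 4 of 5 (14.6%) and in regulatory T cells 3 of 5 (3.55%). In mature dendritic cells it was 3 of 7 (12.3%), in type 1 dendritic cells 2 of 5 (17.3%) and in plasmacytoid dendritic cells 1 of 5 (22.6%). The list was chosen as myeloid enzymes and with earlier results of these data known. A gene was counted at 10 CPM or more in the class or in other T cells in any library. Members such as Arg1, Acod1 and Kmo in macrophages thus entered only through the class where they were high. These counts therefore describe the list and are no test, also where they exceed the background share.

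The ages were compared by the log2 ratio of CPM between libraries, with an exact conditional binomial 95% interval for counting error only. Genes at 10 CPM or more in either library counted as changed past 1.5-fold. In macrophages at 12 against 4 months none of 7 members passed, where 3.93% of 8873 genes did. Acod1 was the furthest at −0.58 (−0.69 to −0.47), followed by Il4i1 at 0.42 (0.19 to 0.66) and Ass1 at −0.35 (−0.41 to −0.30). The median of the 7 was −0.04, against −0.02 over all genes. At 20 against 4 months none was higher and 1 of 7 was lower, where 1.57% of 8833 genes were lower and 3.63% past 1.5-fold either way. That gene was Kmo, with 30.9 CPM (28.7 to 33.2), 31.2 (29.1 to 33.4) and 20.4 (18.9 to 22.0) at the 3 ages and a log2 ratio of −0.60 (−0.75 to −0.44) to 4 months and −0.61 to 12 months. Ass1 was at −0.56 (−0.61 to −0.50), Acod1 at −0.34 (−0.44 to −0.24), Sat1 at −0.10 and Arg1, Odc1 and Il4i1 at 0.07, −0.03 and 0.00. The median of the 7 was −0.10, against −0.02 over all genes.

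The Kmo ratio lay just past the threshold of 0.58, stayed negative under all 12 alternatives, between −0.86 and −0.45, and passed 1.5-fold in 5 of them. The makeup of the class moved with age. The sub-cluster led by Pf4, Cd81 and Ccl8 held 15.8%, 22.2% and 33.7% of macrophages at 4, 12 and 20 months, and among the 4 large sub-clusters it had the lowest Ass1 (84.2 CPM) and Kmo (14.9 CPM). Kmo was lower at 20 than at 4 months within each of the 4 macrophage sub-clusters of 100 or more cells, as were Ass1 and Sat1. At 12 months Kmo was lower than at 4 months in 2 of them and higher in 2. In the Pf4 sub-cluster Kmo was 19.4, 17.1 and 12.2 CPM, and in that led by Cxcl11 it was 31.4, 39.7 and 23.0. Given the same sub-cluster weights in each library, the log2 ratios were −0.45 for Kmo, −0.27 for Ass1 and 0.06 for Acod1. The part of class makeup in the differences between ages was not tested. Arg1 in macrophages had no settled direction, since its 20-month ratio ran from −0.28 to 0.69 over the alternatives. Without the 10 macrophages of the most Arg1 in each library its 12-month ratio was −0.71.

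In monocytes none of 7 members passed 1.5-fold at 12 months (background 5.34%) or at 20 months (3.92%). Arg1 had a log2 ratio of 0.38 (0.23 to 0.52) at 20 months and 0.06 at 12 months. It stayed positive at 20 months under the 12 alternatives, at 0.19 without the 10 highest cells, and its level in the Vcan-led sub-cluster went from 31.1 to 73.2 CPM while that in the Osm-led sub-cluster went from 72.1 to 36.1. Acod1 was at −0.45 (−0.55 to −0.34) at 12 months and −0.10 at 20 months, and Kmo at −0.32 (−0.62 to −0.03) at 20 months. Sat1 was at −0.29 and −0.19. The medians were −0.02 and −0.11, against 0.06 and 0.04 over all genes. Nos2, under the 10 CPM limit, had a log2 ratio of 1.33 at 20 months (0.36 to 2.35) from 15 and 26 counts.

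Among the dendritic classes no member passed in type 1 or type 2 cells at either age (backgrounds 22.1% and 20.8%, and 8.79% and 10.5%). In mature dendritic cells 1 of 7 was higher and 2 lower at 12 months (12.8% and 8.02% of genes, 20.8% in all), and 2 higher and 1 lower at 20 months (12.9% and 13.2%, 26.1% in all). They were Kmo higher and Arg2 and Acod1 lower at 12 months, and Odc1 and Kmo higher and Acod1 lower at 20 months. Of these, the ratios of Arg2 at 12 months (−0.81, −1.58 to −0.05) and of Odc1 at 20 months (1.12, 0.41 to 1.86) had intervals clear of 0, the latter from 27 and 48 counts. The class held 137, 169 and 102 cells, and these calls rest on 6 to 48 counts per library. In regulatory T, other T and NK cells no member passed at either age, where 9.14% and 10.4%, 4.48% and 6.7%, and 3.83% and 3.53% of genes did at 12 and 20 months. In plasmacytoid dendritic cells Il4i1 was higher at 12 months, from 1 and 4 counts (20.5% of genes higher, 38.5% in all), and no member passed at 20 months (42.7%).

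**Figure D4:**
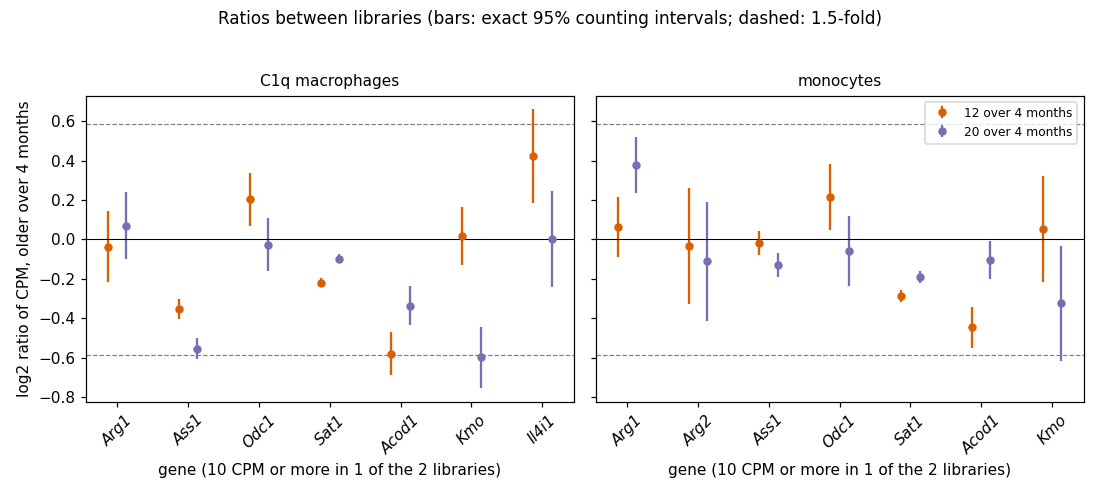
The panels give the log2 ratio of CPM of the 12- and 20-month libraries to the 4-month library for the members at 10 CPM or more, in macrophages (left) and monocytes (right), with exact 95% counting intervals and dashed lines at 1.5-fold. Of the points, Kmo in macrophages at 20 months (−0.60) lies past the line.

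The other genes of these pathways were taken from 3 lists. Of the 27 arginine, nitric oxide and polyamine genes 18 were at 10 CPM or more in macrophages, and at 20 months none was past 1.5-fold higher and 1 was lower, Nos1, as it was at 12 months (1.03% of all genes). Its 322, 161 and 59 counts (13.8, 6.03 and 1.83 CPM) rested on few cells at 4 months, where 1 cell held 47.2% and 10 cells 91.9% of them, and the level in other T cells was 4.00, 6.56 and 5.01 CPM. Of 11 itaconate and citrate cycle genes, all at 10 CPM or more, and of 20 tryptophan and aryl hydrocarbon receptor genes, 6 of them at 10 CPM or more, none passed at either age. In monocytes 1 gene of the 3 lists passed at 20 months, Atp13a2, a lysosomal polyamine exporter, from 22.1 to 33.4 CPM (0.60), where 2.6% of genes were higher. Median log2 ratios of the 3 lists in macrophages at 20 months were −0.03, −0.05 and −0.24.

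Below the threshold in macrophages, Atp13a2 was at 27.2, 31.2 and 38.4 CPM (log2 ratio 0.49 at 20 months, 0.35 to 0.63) and Paox, a polyamine oxidase, at 22.8, 23.3 and 31.1 (0.45). Gch1, which makes the cofactor of nitric oxide synthases, was at 45.6, 36.0 and 35.1 CPM (−0.38) and Dohh, which completes the spermidine-derived hypusine of eIF5A, at −0.29. Of the itaconate list Idh3a was at −0.33, Clybl at −0.15, Nfe2l2 at 0.13 and Cs at −0.11. Haao, a later dioxygenase of the kynurenine pathway, was at 39.1, 35.6 and 30.4 CPM (−0.36), with Wars and Slc3a2 at −0.25 and Tiparp at −0.24. Wars and Slc3a2 were as high in other T cells as in macrophages.

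Some list members, chosen after their values were seen, had class patterns like those of the 10 enzymes. Kynu, kynureninase, was at 99.6 to 116.7 CPM in plasmacytoid, 84.4 to 90.3 in type 2 and 65.6 to 92.4 in mature dendritic cells, against 13.4 to 17.8 in macrophages. Ahr, the aryl hydrocarbon receptor, was at 64.6 to 113.7 CPM in type 1 dendritic cells and 1.73 to 2.25 in other T cells. Smox, spermine oxidase, was at 92.7 to 134.3 CPM in monocytes, against 31.3 to 33.5 in macrophages, and Gatm, which starts creatine synthesis from arginine, was at 184 to 207 in macrophages. Ido2 and Tdo2, the other enzymes that open the pathway, were at or below 3.43 CPM in each of the 10 classes.

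Over the sums of 10 classes in 3 libraries, 30 points that share their library and depth, the genes most like each member were found by Pearson's r of log2(CPM + 5), as a description. They were C5ar1 (0.93), Apoc1 and Msr1 for Arg1, Slc11a1 (0.94), Apoc2 and Ms4a8a for Acod1, and Lst1 (0.95), Acp2 and Nupr1 for Sat1. For Kmo they were Apod (0.96), Bloc1s2 and Bcl11a, and for Il4i1 Ccl22 (0.96), H2-Eb2 and Gm49450. Arg2 was most like Anxa3 (0.91), Car13 and Il6, Ass1 like Gm34455 (0.90), H1f0 and Coro1b, and Odc1 like Il1rl1 (0.91), Dusp4 and Gm47050. Nos2 and Ido1 had too few counts. Between members, r ran from −0.44 (Arg1 and Il4i1) to 0.88 (Acod1 and Sat1), with 0.86 for Acod1 and Arg1 and −0.28 for Odc1 and Sat1.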

How the data were processed

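Live CD45+ cells of YUMM1.7 tumours were measured in 3 libraries, 1 per age, grouped by the ages in the sample titles. The authors deposited whole-number counts per gene and cell barcode, not normalized. STAR 2.7.10a and GRCm38 are named per the submitters' processing notes, and the cell caller, whether counts are molecules and the use of strand are not given in the sources used here. Libraries held 110371225 to 127850782 counts, and intervals cover counting error only.

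Cells with fewer than 500 counts or over 15% mitochondrial counts, and the 6% with the highest Scrublet score in each library, were left out. With scanpy 1.11.5, counts were scaled to 10000, and 2000 variable genes without members, pathway genes and 57 library-specific genes gave 30 components and 15 neighbours for Leiden clustering (leidenalg 0.10.2, resolution 1). Myeloid cells were clustered again. Clusters were named from 20 marker lists by a scoring rule chosen after the data were seen, and unclear clusters stayed unnamed. Levels are CPM of class sums. A ratio counted as changed past 1.5-fold for genes at 10 CPM or more in 1 of the 2 libraries. With 1 library per age no test across mice and no p-value was possible. The ratio intervals and the fold call were tried on Poisson counts simulated from macrophage sums with known folds. That simulation held no spread between cells or mice and left out clustering, naming and thinning. The 10 members and the lists were chosen with earlier results of these data known. All members are named, with up to 4 genes per pathway list by their 20-month ratio in macrophages and 3 genes most like each member of 300 or more counts. Of the gene identifiers 54349 of 55401 matched GENCODE M21 with their version. Tried alternatives were other resolutions (0.5 and 2), clustering genes, doublet removal, separate clustering, depth, scaling, highest cells and background subtraction. Of the 12 alternatives for the age ratios 2 were added after the data were seen, as was the class order without the 10 highest cells.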

Additional observations from a re-analysis of the deposited data

How the results depend on the processing

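In macrophages at 12 months the count of members lower past 1.5-fold went from 0 to 1 at resolution 2.0, with libraries clustered separately, without the 10 highest cells (there Arg1) and with the level of other T cells subtracted (Acod1 in the other 3). At 20 months the higher count went from 0 to 1 (Arg1, 0.69) with sub-clusters given the same weight. That weighting includes the Mmp12-led cells, with Arg1 at 209 CPM in 36 cells at 4 months and 1074 CPM in 9 cells at 20 months. The lower count went from 1 to 2 (Kmo and Ass1) at resolution 2.0, with members among the clustering genes and with T levels subtracted. It went to 0 without doublet removal, with median-of-ratios scaling, with mean cell shares, without the 10 highest cells, with library-specific genes among the clustering genes and with the same sub-cluster weights. With separate clustering Ass1 was past the fold (−0.60) in place of Kmo. In monocytes 1 member was lower at 12 months with separate clustering (Acod1, −0.81), 1 higher at 20 months with members among the clustering genes (Arg1, 0.60) and 1 lower at 20 months after T subtraction (Kmo, −0.80). Without the low-count filter the genes past 1.5-fold were 30.9% and 26.9% in macrophages and 28.5% and 27.1% in monocytes. Ass1 in macrophages stayed negative at both ages and Sat1 in both classes, under all 12 alternatives each. Acod1 in macrophages at 12 months ran from −1.49 with separate clustering to −0.26 with the same sub-cluster weights.

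Among the 10 classes with 50 or more cells in each library, the class with the highest level was the same for Odc1, Kmo and Il4i1 at resolutions 0.5 and 2.0, in each library alone and without the 10 highest cells of each class and library, the last chosen after seeing the data. For Arg2 it was the same in all but the last, where monocytes led (10.05 CPM), as they then did for Ass1 (271 CPM). Removing 10 cells takes a larger part of a small class than of a large one, so these changes do not settle which class leads. At resolution 0.5 a nonclassical monocyte class of 162 cells had the highest Arg1 (246.7 CPM), Nos2 (3.32), Ass1 (341), Sat1 (1668) and Acod1 (140). Of its cells 106 came from the Serpinb10-led monocytes, 9 from the Osm-led monocytes and 47 from the Mmp12-led sub-cluster of macrophages. Arg1 was at 209, 708 and 1074 CPM in the whole Mmp12-led sub-cluster and at 1.75, 2.80 and 7.62 in the whole Serpinb10-led one. The class name therefore does not place these levels in nonclassical monocytes. At resolution 2.0 a nonclassical monocyte class led Sat1 at 1983 CPM. Regulatory T cells led Ass1 in the 12-month library (290 CPM). Nos2 and Ido1 rest on few counts, and their order changed between libraries. No paired analysis was possible because each age has 1 library. Pooling, depth and mouse cannot be told apart from age.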
